A study of Mus musculus with 9 samples.

Results

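The cells described here are the tumour cells of 168FARN mammary tumours whose transcripts placed them in or close to cell division. A barcode was counted as a tumour cell when its detected genes numbered above 500 and below 7500, mitochondrial transcripts made up less than 15% of its counts, and it held at least 1 unique molecular identifier (UMI, the count of a single captured transcript) of Krt8 or of the H2BMc reporter, but none of Ptprc or Pecam1. It was counted as mitotic when at least 3 of Cdc20, Cenpa, Ccnb2, Ccnb1, Cdkn3 and Pttg1 each had 2 or more UMIs. By this rule 5371 of 39224 tumour cells (13.7%) were mitotic, out of 58645 barcodes that passed the limits on genes and mitochondrial counts and 89147 barcodes in all. The other 33853 tumour cells served as the comparison. The levels of the 6 rule genes, and of any gene set beside them within the same cells, are therefore given as descriptions with no test, whereas differences between genotypes were tested over tumours.

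Entry into mitosis is driven by CDK1 bound to cyclin A or B, together with the Polo and Aurora kinases. Chromosomes are then compacted by condensin, attached to spindle microtubules through the kinetochore and held back by the spindle assembly checkpoint until every kinetochore is attached. The anaphase-promoting complex (APC/C) afterwards marks securin and cyclin B for destruction, which releases separase and lets the cell divide. Transcription is largely shut down on condensed chromosomes.

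The series holds 9 primary tumours from the mammary fat pad of syngeneic female BALB/c mice, 3 from wild-type (WT) 168FARN cells, 3 from Kmt2c knockout (KO) cells and 3 from Kmt2d KO cells. 168FARN is a mouse mammary carcinoma line, and Kmt2c and Kmt2d encode the related histone methyltransferases that place H3K4 monomethylation at enhancers. All tumour cells had been given H2BMc, a histone H2B fused to mCherry, and single cells were profiled with 5′ droplet RNA sequencing. Each KO line was made once with guides against the first exon, so the 3 tumours of a genotype replicate the mouse and not the knockout. The mice were bought as young females a few weeks old. The numbers 1 to 3 name the libraries of a genotype in the order of the aggregation table and do not pair tumours across genotypes.

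The libraries held 3109 to 22929 barcodes and 21529691 to 125617312 UMIs, and the WT libraries held the fewest barcodes (3109, 3835 and 3682). Mitotic cells numbered 1423, 718 and 530 in the Kmt2c KO tumours, 674, 688 and 824 in the Kmt2d KO tumours and 156, 227 and 131 in the WT tumours. Of 84658 distinct barcode sequences, 4365 (5.16%) occurred in more than 1 library, which concerned 536 mitotic cells, and 21 sequences marked a mitotic cell in 2 libraries. One library stood apart from its genotype. In mitotic cells of Kmt2d KO 2, Gm364 was at 0.568 CPM (the gene's UMIs scaled to the same total in every tumour and cell class), against 41.6 and 52.2 CPM in Kmt2d KO 1 and 3, 0.327, 1.92 and 0.473 in Kmt2c KO and 49.1, 43.0 and 42.7 in WT tumours. Serpinh1, which encodes a collagen chaperone, was at 67.1 CPM in Kmt2d KO 2 against 226 and 234 CPM in the other Kmt2d KO tumours and 56.8, 52.7 and 29.2 CPM in Kmt2c KO tumours. The interferon-inducible gene Iigp1 showed the same placing at 104 CPM against 5.83 and 7.64 CPM, with 79.4, 104 and 170 CPM in Kmt2c KO tumours. The library labelled Kmt2d KO 2 thus lay with the Kmt2c KO libraries at these genes. At H2-Q6 it lay with its own label, at 255 CPM against 237 and 254 CPM in the other Kmt2d KO and 323 to 408 CPM in Kmt2c KO tumours. Per1 was at 38.7 CPM, against 33.8 and 21.9 CPM, 7.28 to 8.49 CPM, and 15.6, 29 and 33 CPM in WT tumours. Per1 was named by a rule that asks for no overlap between the KO groups, so its placing was fixed by that choice. What sets Kmt2d KO 2 apart was not tested, and the Kmt2d KO results are given further down without it as well. The deposited transcript counts check no label, because a guide against the first exon need not lower them: Kmt2c was at 26.6, 25.9 and 36.1 CPM in mitotic cells of Kmt2c KO tumours and at 28.7, 31.1 and 31.3 CPM in WT tumours, and Kmt2d was at 20.2, 25.3 and 16.7 CPM in Kmt2d KO and at 15.6, 17.1 and 13.4 CPM in WT tumours.

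Mitotic cells were richer in RNA than other tumour cells. Their median was 18919 UMIs against 9089, a ratio of 2.08, and the ratio ran from 1.79 to 4.26 over the 9 tumours. They held a median of 4686 detected genes against 3201, but 1505 against 1509 once every cell was thinned at random to 3000 UMIs. Mitochondrial counts took 2.27% of their UMIs against 3.71%. The epithelial keratin Krt8 was detected in 98.5% of mitotic and 90.5% of other cells. H2BMc was detected in 47.0% and 41.2%, and both genes in 45.4% and 31.7%. With cells thinned to 3000 UMIs, Krt8 was detected in 67.9% and 58.9%, but H2BMc in 11.9% and 18.6%. Both genes are part of the tumour cell gate. Because 2 UMIs of 3 genes are easier to reach in a deep cell, depth is part of how the members were found, and the median depth of mitotic cells differed between tumours: 14571, 17429 and 18767 UMIs in Kmt2c KO, 18769.5, 21432.5 and 28513 in Kmt2d KO and 31754, 23000 and 34505 in WT tumours.

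Markers of most other cell types summed to less in mitotic than in other tumour cells. The 12 macrophage markers summed to 7.89 to 22.1 CPM per tumour in mitotic cells and 13.6 to 41.6 CPM in other tumour cells, with 22.1, 20.1 and 16.5 CPM in mitotic cells of Kmt2c KO tumours, 8.77, 12.5 and 7.89 in Kmt2d KO and 10.7, 8.07 and 14.7 in WT tumours. T and NK cell markers summed to at most 0.505 CPM in mitotic and 1.41 CPM in other cells. Endothelial markers summed to 9.06 to 31.7 CPM in mitotic and 7.97 to 23.3 CPM in other cells, and were higher in mitotic cells in 5 of 9 tumours. Mural cell markers summed to 5.39 to 16.5 CPM against 41 to 89.8 CPM, and fibroblast markers to 348 to 508 CPM against 787 to 1150 CPM. The gate asks for no UMI of Ptprc or Pecam1, which is harder to meet in a deep cell, and mitotic cells were the deeper class. The part of the gate in these sums was not tested. No doublet caller was run. Among barcodes that carried Ptprc or Pecam1, and were therefore outside the gate, 117 of 2513 (4.66%) met the mitotic condition, at a median of 2891 UMIs per barcode against 10060 in the gated cells.

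The 6 rule genes span the regulators of CDK1 and of anaphase. Cyclins B1 and B2 (Ccnb1, Ccnb2) activate CDK1, Cdkn3 encodes a phosphatase of CDKs, Cdc20 is the mitotic activator of the APC/C, Pttg1 is securin, the inhibitor of separase, and Cenpa is the histone H3 variant that marks centromeres. Cenpa was the most widely met condition, with 2 or more UMIs in 98.5% of mitotic cells (97.4 to 99.6% over tumours), followed by Pttg1 with 93.6% (90.3 to 96.6%) and Ccnb2 with 87.9% (82.4 to 94.4%). Cdc20 reached 2 UMIs in 77.5%, Cdkn3 in 65.9% and Ccnb1 in 52.5% of the mitotic cells. All 6 genes were met by 27.5 to 47.8% of the mitotic cells of a tumour, and exactly 3 by 16.6 to 26.0%. In other tumour cells the median of each gene was 0 UMIs, and the share with any UMI was lowest for Ccnb1, at 4.33%, and at 12.6% for Pttg1 and 9.44% for Cdc20.

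Promoters of Cdc20, Ccnb2, Cdkn3 and Ube2c are shown because they carry, in different arrangements, the CHR motif (cell cycle genes homology region, TTTGAA) and the CCAAT box. These motifs are known from G2/M promoters as sites of MuvB complexes and of NF-Y. In Ccnb2 the TTTGAA matches lie outside the part shown, as given below. The stretches are the 140 bases before the RefSeq start site on build GRCm38.p6, 5′ to 3′ on the strand of the gene, with every match of either motif on either strand in capitals. They lie at chr4:118437344-118437483 (minus strand) for Cdc20, chr9:70421555-70421694 (minus strand) for Ccnb2, chr14:46760401-46760540 (plus strand) for Cdkn3 and chr2:164769789-164769928 (plus strand) for Ube2c, the APC/C ubiquitin-conjugating enzyme, which the rule did not use.
Cdc20: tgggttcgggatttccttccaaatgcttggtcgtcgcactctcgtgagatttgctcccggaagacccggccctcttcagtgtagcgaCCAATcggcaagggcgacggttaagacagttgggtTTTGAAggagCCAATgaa
Ccnb2: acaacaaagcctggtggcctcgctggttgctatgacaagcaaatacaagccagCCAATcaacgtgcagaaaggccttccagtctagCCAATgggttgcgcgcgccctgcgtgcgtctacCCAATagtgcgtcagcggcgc
Cdkn3: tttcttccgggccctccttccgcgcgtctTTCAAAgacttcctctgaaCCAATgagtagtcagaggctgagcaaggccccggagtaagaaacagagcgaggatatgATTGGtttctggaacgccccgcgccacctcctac
Ube2c: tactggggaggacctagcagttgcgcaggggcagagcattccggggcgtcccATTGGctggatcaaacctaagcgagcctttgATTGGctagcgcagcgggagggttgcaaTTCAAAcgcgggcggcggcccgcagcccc

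Over the window from 250 bases before to 50 after the start, TTTGAA occurred in the promoters of 4 of the 6 rule genes, against 20.2% of all 27025 promoters, and CCAAT in 5 of 6 against 41.1%. Cdc20 carried TTTGAA at position -18 from the start, and Ube2c on the opposite strand at -29. Cenpa and Plk1, the Polo kinase, carried it after the start, at 17 and 31. Ccnb2 carried TTTGAA at -167 and at 5 and 3 CCAAT boxes within the printed stretch, at -87, -54 and -21. The window of Ccnb1 held CCAAT boxes and no TTTGAA, and that of Pttg1 held neither. Of the G2/M genes in the study's cell cycle list, 29 of 43 with a promoter entry (67.4%) held TTTGAA and 32 (74.4%) held CCAAT. Spindle genes held TTTGAA in 17 of 27 promoters (63.0%), whereas APC/C genes held it in 3 of 15 (20.0%) and S phase genes in 5 of 30 (16.7%), both near the share over all promoters. S phase genes held CCAAT in 21 of 30 promoters (70.0%), a share close to that of the G2/M genes. They held the E2F motif TTTNNCGC in 13 of 30 promoters (43.3%) against 5.93% of all. Condensin and cohesion genes held both the E2F motif (7 of 15, 46.7%) and TTTGAA (8 of 15, 53.3%).

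The threshold cut a graded range. Tumour cells that met 0, 1, 2, 3, 4, 5 and 6 of the rule genes numbered 30346, 2294, 1213, 1121, 1023, 1257 and 1970, so the 1213 cells just outside and the 1121 just inside were similar in number. Their median depths were 13191 and 15619 UMIs, and 23690 UMIs in cells that met all 6. The summed level of the study's G2/M genes (with the rule genes left out) was 4640 CPM just outside and 5070 CPM just inside, as the median over tumours, and 14700 CPM in cells with all 6. Mki67, the Ki-67 protein that coats mitotic chromosomes and which the rule did not use, stood at 19.5, 150, 247, 283, 370, 492 and 666 CPM from 0 to 6 genes met. Ube2c climbed from 179 to 238 CPM across the threshold and to 1680 CPM with all 6, and Plk1 from 30.5 to 46.2 and then 257 CPM. The S phase genes had a different course, with 1380 CPM at 0 genes, 3360 CPM at 1 gene and 2100 CPM at 6 genes. Cells just outside the rule were thus not free of division transcripts, and they are part of the comparison cells throughout.

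**Figure D1:**
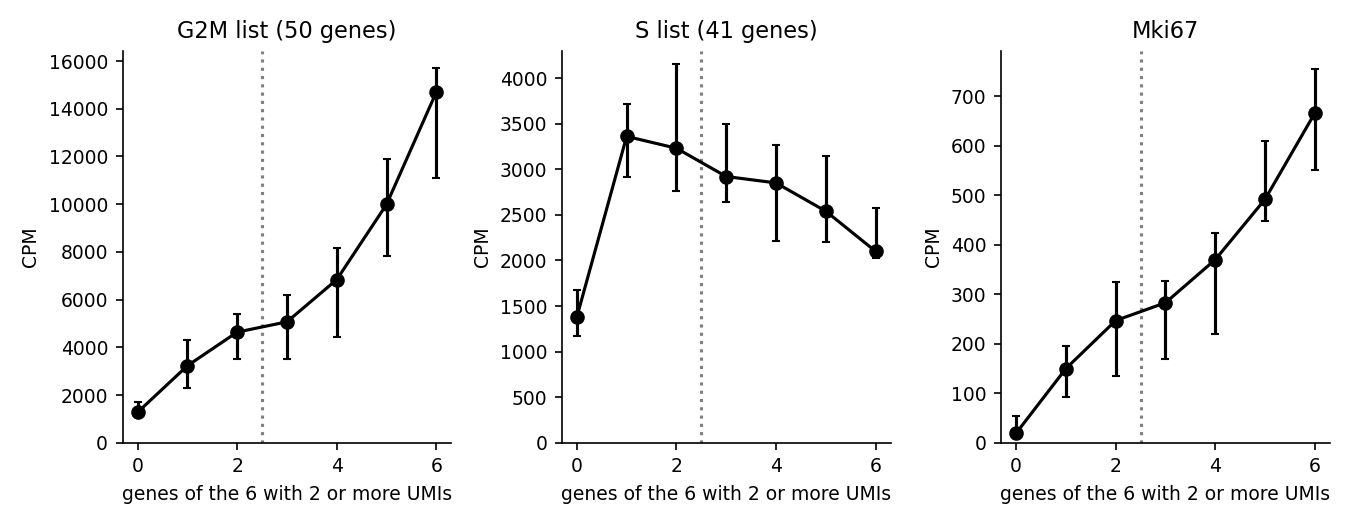
Level in CPM of the study's G2/M list, its S phase list and Mki67 in tumour cells grouped by how many of the 6 rule genes they met; points are the median over tumours, bars run from the lowest to the highest tumour, and the dotted line marks the threshold of 3 genes. The G2/M list and Mki67 stood higher at each step up to 14700 and 666 CPM, whereas the S phase list was highest at 1 gene met, at 3360 CPM.

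The share of tumour cells in mitosis did not separate the genotypes. At full depth it was 17.0, 12.3 and 13.2% in Kmt2c KO tumours, 14.5, 15.3 and 9.76% in Kmt2d KO tumours and 17.7, 12.1 and 20.9% in WT tumours, so all 3 groups overlapped. The group means were 14.2% ± 2.48 (SD, n = 3), 13.2% ± 2.99 and 16.9% ± 4.44, with p = 0.6286 in an exact permutation test over the 3 genotypes. With cells thinned to 3000 UMIs, and cells below that depth left out, the shares were 4.75, 3.05 and 3.33% in Kmt2c KO, 4.06, 3.07 and 3.47% in Kmt2d KO and 3.15, 2.47 and 3.95% in WT tumours. The thinned means were 3.71% ± 0.911, 3.53% ± 0.497 and 3.19% ± 0.744 (SD, n = 3), which put WT lowest where full depth put it highest (exact permutation p = 0.8286). The 6 pairwise exact permutation tests gave two-sided p-values of 0.3 to 0.9, where 3 tumours against 3 allow none below 0.1, and every p of the 8 comparisons adjusted to 0.9. Thinning left out 5046 tumour cells, of which 3170 came from Kmt2d KO 3 and 8 had been called mitotic. The limit of 7500 genes removed 26 cells that met the mitotic condition, 13 from Kmt2d KO 3 and 8 from WT 3, where they made up 5.76% of the cells that met the condition.

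**Figure D2:**
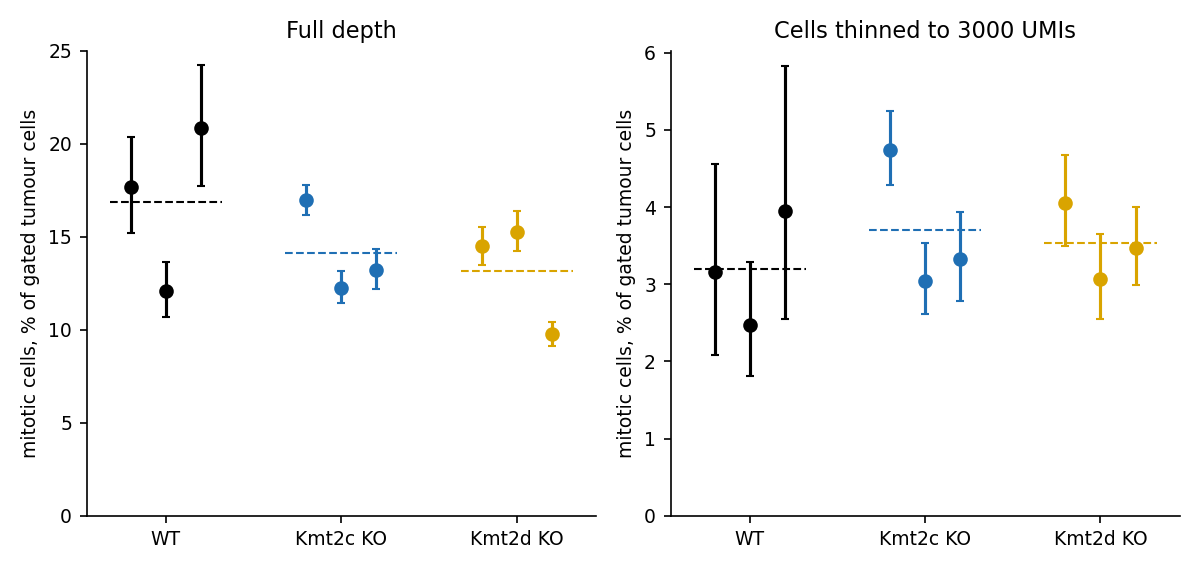
Percent of tumour cells called mitotic in each tumour, at full depth and after thinning each cell to 3000 UMIs; bars are 95% binomial intervals, which cover counting error only, and dashed lines are group means. The genotypes overlap in both panels, and the WT mean moves from highest (16.9%) to lowest (3.19%).

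Most genes of the mitotic role lists, none of which the rule used, were higher in the mitotic than in the other tumour cells of each tumour, and the size of the difference varied widely between and within the lists. For each gene the CPM of the summed counts was compared within each tumour as a log2 ratio of CPM + 1, and the median, lowest and highest of the 9 tumours are given. Over the 12223 genes at 1 CPM or more the median ratio was -0.13. Of these genes, 21.6% were higher in mitotic cells in all 9 tumours and 40.4% were lower in all 9, so a shared direction alone is common.

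The kinases that drive mitosis stood far above the other cells. Plk1 was at 189, 186 and 180 CPM in mitotic cells of Kmt2c KO, 185, 170 and 165 in Kmt2d KO and 126, 138 and 94.3 in WT tumours, with a ratio of 4.89 (3.54 to 5.40). The Aurora kinases followed, Aurka with 3.81 and Aurkb with 3.41, as did the centrosomal kinase Nek2 with 4.14. All 9 genes of the kinase list, which also holds the kinase cofactor Bora, were higher in all 9 tumours (median ratio 2.68). Among cyclins and CDK1 regulators 14 of 15 were higher throughout (median 1.46), led by the CDK1-activating phosphatase Cdc25c (3.75), cyclin A2 (Ccna2, 3.67), the CDK1 subunit Cks2 (3.16) and Cdk1 itself (2.74). Ensa, a target of the Greatwall kinase that restrains the PP2A phosphatase, was the exception at -0.16.

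In the APC/C group regulators had the largest ratios, and core subunits ran from below 0 to 1.20. Ube2c was at 1060, 1110 and 1050 CPM in Kmt2c KO, 1060, 1110 and 896 CPM in Kmt2d KO and 828, 996 and 634 CPM in WT mitotic cells, against 15.7 to 75.9 CPM in the other tumour cells, and its ratio of 5.32 (3.86 to 5.78) was the highest among the role lists. The separase gene Espl1 followed with 2.96, the APC/C inhibitor Fbxo5 with 2.81 and the chain-elongating enzyme Ube2s with 1.88. The core subunits Anapc4, Anapc10, Anapc13, Cdc16 and Cdc26 had ratios of -0.08, 0.00, 0.04, -0.08 and -0.09, and the scaffold subunit Anapc2 was lower in all 9 tumours, at -0.22. The core subunits Anapc5, Anapc11, Cdc23, Cdc27 and Anapc15 were higher in all 9 tumours, at 0.34, 0.45, 0.57, 0.63 and 1.20. Of 17 APC/C genes 11 were higher and 2 lower in all 9 tumours (median 0.57).

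Checkpoint and kinetochore genes were high as groups. In the spindle assembly checkpoint 11 of 12 were higher throughout (median 1.91), with the kinase-like Bub1b at 3.81 and the kinetochore scaffold Knl1 at 3.32. The chromosomal passenger complex and its shugoshin partners had a median of 3.11 over 5 of the 6 list members, with survivin (Birc5) at 3.78 and borealin (Cdca8) at 3.37. All 29 centromere and kinetochore genes measured were higher in all 9 tumours (median 1.65). Cenpf, of the outer corona, led them at 4.44 (3.45 to 5.16), ahead of the kinetochore motor Cenpe at 4.11.

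Spindle genes had a median of 3.09, and 30 of 31 were higher in all 9 tumours. The spindle proteins Hmmr (4.32) and the kinesins Kif20a (4.23) and Kif2c (3.99) were near the top, whereas Numa1, which anchors spindle poles to the cortex and also serves in the interphase nucleus, was at -0.10. All 12 cytokinesis and midzone genes measured were higher throughout (median 2.92), among them Aspm at 4.52 and Pimreg at 3.99. Condensin subunits and Top2a, which untangles sister DNA, were high (Ncapd2 2.39, Top2a 2.83), and cohesin varied in direction. The core cohesin subunits Rad21, Smc1a and Smc3 were higher in all 9 tumours at 1.67, 0.57 and 0.23. The cohesin subunit Stag2 and the cohesin regulator Pds5b were lower in all 9 tumours at -0.33 and -0.44, and Pds5a, Wapl and Stag1 stood at -0.05, 0.15 and 0.17. In the nuclear envelope group 12 of 13 were higher throughout, with lamin B1 (Lmnb1) at 2.17 and Hmgb2 at 2.52, and the heterochromatin protein gene Cbx5 had a ratio of 0.00. Outside all lists, the genes highest in every tumour included Sapcd2 (4.48, 3.92 to 5.10), a regulator of spindle orientation, Fam83d (4.06), which recruits casein kinase 1 to the spindle, and the histone variant gene H2afx (2.72).

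**Figure D3:**
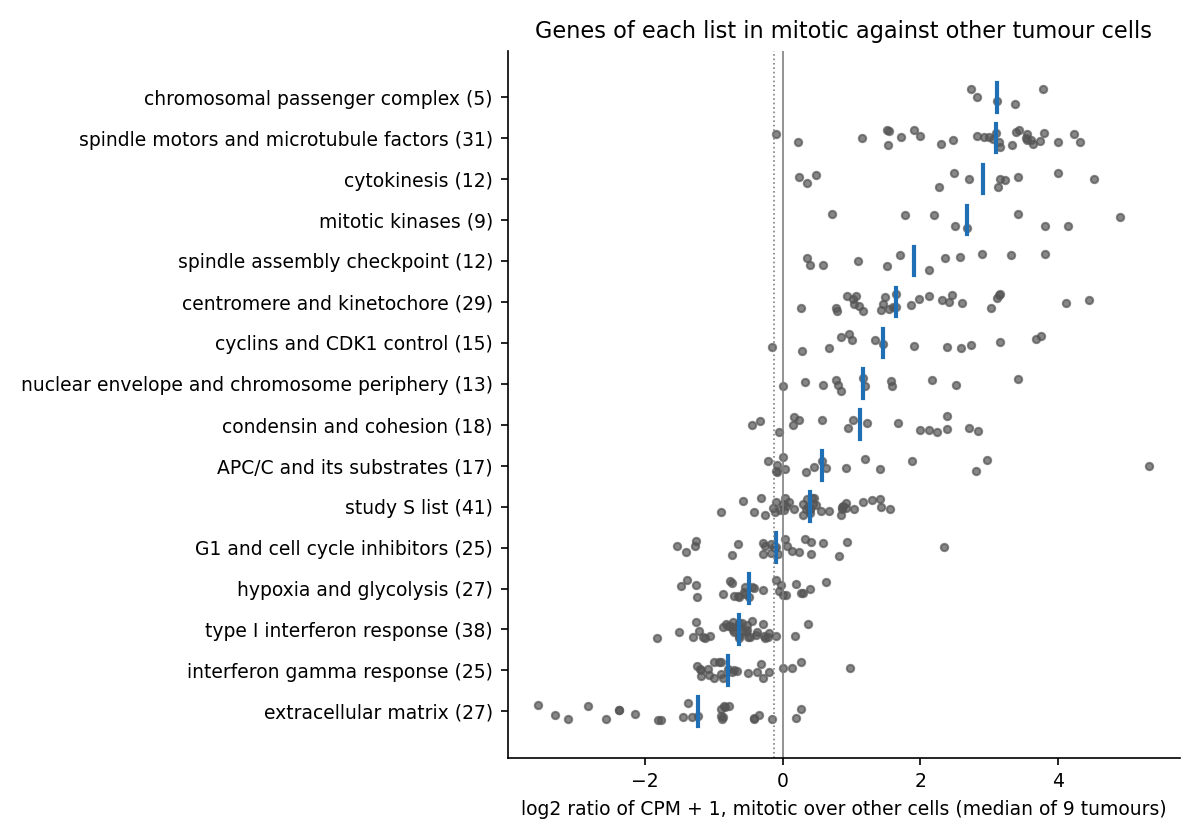
Median over 9 tumours of the log2 ratio of CPM + 1 in mitotic over other tumour cells, 1 dot per gene, by list with the number of genes plotted in brackets; the blue bar is the list median and the dotted line the median of all genes (-0.13). The mitotic role lists lie to the right, from 0.57 for the APC/C to 3.11 for the passenger complex, the S phase list is at 0.39, and the matrix list (-1.23) lies furthest to the left.

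Detection showed the same contrast when depth was made equal. At full depth Mki67 had a UMI in 93.4% of mitotic and 17.5% of other tumour cells, and in 20.0% of the barcodes with Ptprc or Pecam1. With each cell thinned to 3000 UMIs the shares were 67.7 and 8.87%. Thinned shares were 64.2 and 6.86% for Ube2c, 35.9 and 1.87% for Plk1 and 60.1 and 5.89% for Birc5. Pcna, the DNA polymerase clamp of S phase, behaved differently, with 61.9 and 33.7% at full depth but 19.6 and 16.6% once thinned. The S phase list had a median ratio of 0.39, with 22 of 41 genes higher and none lower in all 9 tumours. It was led by E2f8 (1.56), the centromere gene Cenpu (1.43) and the ribonucleotide reductase subunits Rrm1 (1.42) and Rrm2 (1.30). The summed level of the list was higher in mitotic cells in 9 of 9 tumours. With members chosen after each cell was thinned to 5000 UMIs, it was higher in 6 and lower in 3. That choice kept 2505 of the 5371 mitotic cells and left out cells below 5000 UMIs. Deeper members that no longer met the rule were counted among the other cells. The part of this regrouping in the change was not tested. Of 25 G1 genes and inhibitors 7 were higher and 7 lower in all 9 tumours (median -0.09), beside 21.6% and 40.4% of all genes. Their summed level was higher in mitotic cells in 9 of 9, at 3490 to 4210 against 2610 to 3160 CPM. Much of that sum was cyclin D1 (Ccnd1), at a pooled 1750 against 902 CPM. Ccnd1 had a ratio of 0.93 and the CDK inhibitor Cdkn2d 2.34, while Rb1, the antiproliferative gene Btg2 and cyclin D2 (Ccnd2) were low at -1.53, -1.40 and -1.27.

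Matrix and antigen presentation transcripts took a smaller part of the RNA of mitotic cells, as did interferon transcripts where members were chosen at full depth. Of 27 extracellular matrix genes 22 were lower in all 9 tumours and 1 higher (median -1.23). Fibronectin (Fn1) was at 1120, 1110 and 1480 CPM in mitotic cells of Kmt2c KO, 1270, 987 and 1290 in Kmt2d KO and 659, 716 and 515 in WT tumours, against 3460, 4110 and 4810, 3840, 3470 and 3690, and 3430, 3300 and 2990 CPM in the other tumour cells of the same tumours. The mitotic and other cells did not overlap in any genotype. The genes outside the lists that were lowest included the matricellular gene Thbs2 (-3.54), the proteoglycan genes Aspn (-4.15) and Vcan (-2.71), the alarmin gene Il33 (-3.25), the copper oxidase gene Cp (-2.90) and Mxd4 (-2.45), which encodes an antagonist of MYC. Thbs2, Aspn and Vcan are also expressed by fibroblasts, whose markers summed to less in mitotic than in other cells as given above, and the part of fibroblast RNA in these differences was not tested. Type I interferon genes were lower in all 9 tumours for 33 of 38 (median -0.64), interferon gamma genes for 17 of 25 (median -0.79), class I antigen presentation genes for 12 of 21 (median -0.29) and hypoxia and glycolysis genes for 17 of 27 (median -0.49). In the last group Vegfa, Ndrg1 and Ddit4 were at -1.39, -1.25 and -1.26. The glycolytic genes were divided. Pgk1, Pgam1, Tpi1 and Pkm were at 0.40, 0.30, 0.26 and 0.19 and higher in 8 of 9 tumours. Hk1, Hk2, Pfkl and Pfkp were at -0.56, -0.70, -0.65 and -0.44 and lower in all 9, and Ldha, Gpi1 and Eno1 were at -0.09, -0.06 and 0.01. The summed level of the list was higher in mitotic cells in 6 of 9 tumours. With members chosen after each cell was thinned to 5000 UMIs, the summed level of matrix and class I genes was lower in mitotic cells in all 9 tumours, as with the main choice. That of type I interferon genes was lower in 5 and higher in 4 of 9 tumours, against lower in 9 with the main choice. WT 1, at 1990 against 1800 CPM, and WT 2, at 2010 against 1700 CPM, were among the higher. That of interferon gamma genes was lower in 7, and that of hypoxia and glycolysis genes in 8 of 9 tumours. As given above, members lost by this choice stood among the other cells. A sum also follows its most abundant genes, and the counts of single genes were not repeated with this choice. In the type I list these were Ifi27l2a and Ly6e, at pooled levels of 1320 and 882 CPM in mitotic cells. With the main choice each was higher in mitotic cells in 7 of 9 tumours. The targeted genes were lower in mitotic cells with the main choice, Kmt2c at -0.82, Kmt2d at -0.40 and their partner Kdm6a at -0.62. H2BMc was at -0.69 and Krt8 at 0.24.

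Between genotypes, the mitotic cells differed most at interferon, antigen presentation and matrix genes. Sums of counts per tumour were tested with the quasi-likelihood test of edgeR over all 9 tumours, with p-values adjusted over 12360 genes. In Kmt2c KO against WT mitotic cells 869 genes were higher (7.03%) and 822 lower (6.65%) at an adjusted p under 0.05. In the 38 type I interferon genes tested 37 rose and none fell, with a median log2 difference of 2.86 against 0.00 over all genes. Of 24 interferon gamma genes 20 rose (median 4.12), and of 21 class I antigen presentation genes 19 rose (median 1.67). Without WT 3 the counts were 26, 8 and 18, and without WT 1 the interferon gamma count was 13. Of the 8 macrophage markers tested, Fcer1g passed the test (log2 difference 2.04, SE 0.47, edgeR adjusted p = 0.0152), and of the endothelial markers Cdh5 did (1.68, SE 0.42, edgeR adjusted p = 0.0238). The macrophage markers had a median of 1.11 with 7 of 8 above 0, and the 3 endothelial markers tested had 1.04 with 2 above 0. In mitotic cells the macrophage markers summed to at most 22.1 CPM in any tumour. The endothelial markers summed there to 16.7, 25.1 and 31.7 CPM in Kmt2c KO and 9.31, 11.5 and 9.06 CPM in WT tumours. The part of such cells in these differences was not tested. The other tumour cells differed from WT as well, with 1962 of 14744 genes called in Kmt2c KO and 232 in Kmt2d KO. Their medians in Kmt2c KO were 2.15 for type I interferon, 2.84 for interferon gamma and 1.47 for class I genes.

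The membrane antiviral gene Ifitm3 was at 2890, 3330 and 3630 CPM in mitotic cells of Kmt2c KO, 1170, 2040 and 1120 in Kmt2d KO and 683, 669 and 656 in WT tumours. The 3 genotypes did not overlap, and the Kmt2c KO difference was 2.26 on the log2 scale (SE 0.19, edgeR adjusted p = 9.2e-05). Ifi27l2a, also interferon-inducible, was at 1720, 2080 and 2390 CPM, 897, 1160 and 963 CPM, and 433, 434 and 451 CPM in the same order, again without overlap. It rose by 2.19 (SE 0.12, edgeR adjusted p = 5.71e-06). Bst2, which tethers budding virus, was at 919, 1110 and 1100 CPM in Kmt2c KO, 245, 656 and 250 in Kmt2d KO and 167, 110 and 111 in WT mitotic cells. The Kmt2c KO difference was 2.97 (SE 0.34, edgeR adjusted p = 0.000695), and Kmt2d KO 2 lay well above its 2 fellow tumours.

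Isg15, a ubiquitin-like modifier induced by type I interferon, was at 538, 685 and 846 CPM in Kmt2c KO, 93.9, 452 and 116 in Kmt2d KO and 75.3, 33.8 and 33.2 in WT mitotic cells (Kmt2c KO 3.82, SE 0.56, edgeR adjusted p = 0.00226). Rsad2, which encodes the antiviral enzyme viperin, was at 17.4, 22.3 and 24.0 CPM in Kmt2c KO and at 0, 12.5 and 1.71 CPM in Kmt2d KO mitotic cells, and had no count in the 3 WT tumours. The promoters of this pair are shown because both hold the core of the interferon-stimulated response element, taken as 2 copies of GAAA with any 2 bases between them, with matches on either strand in capitals (neighbouring matches overlap), again as the 140 bases before the RefSeq start on GRCm38.p6 and 5′ to 3′ on the gene's strand. They lie at chr4:156200819-156200958 (minus strand) and chr12:26456453-26456592 (minus strand).
Isg15: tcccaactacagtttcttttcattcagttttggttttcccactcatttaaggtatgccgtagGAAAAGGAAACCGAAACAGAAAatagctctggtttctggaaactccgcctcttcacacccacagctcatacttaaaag
Rsad2: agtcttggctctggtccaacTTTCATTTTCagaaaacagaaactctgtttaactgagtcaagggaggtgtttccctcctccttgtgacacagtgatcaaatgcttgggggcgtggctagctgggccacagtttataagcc

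This motif occurred in 13 of 29 promoters of type I interferon genes (44.8%) and 12 of 18 of interferon gamma genes (66.7%), against 3.99% of all promoters and 4.65% of the G2/M list. Isg15 held 3 overlapping matches, at -78, -72 and -66, and Rsad2 held 1 at -120.

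The guanylate-binding protein gene Gbp2, which acts against intracellular pathogens, was at 273, 323 and 478 CPM in Kmt2c KO, 38.9, 341 and 33.4 in Kmt2d KO and 34.7, 26.7 and 22.6 in WT mitotic cells. It rose by 3.63 in Kmt2c KO (SE 0.78, edgeR adjusted p = 0.0118). Iigp1, an immunity-related GTPase given above for Kmt2d KO 2, was at 3.57, 3.27 and 0.431 CPM in WT tumours and rose by 5.52 (SE 1.21, edgeR adjusted p = 0.013). Cd274, the checkpoint ligand PD-L1, rose by 4.20 (SE 0.85, edgeR adjusted p = 0.00942), and the surface antigen Ly6a by 4.42 (SE 0.61, edgeR adjusted p = 0.00167).

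The class I heavy chain gene H2-D1 was at 5020, 5140 and 4920 CPM in Kmt2c KO, 3070, 3870 and 3240 in Kmt2d KO and 1730, 1870 and 1990 in WT mitotic cells. It rose by 1.39 in Kmt2c KO (SE 0.10, edgeR adjusted p = 1.88e-05) and by 0.82 in Kmt2d KO (SE 0.10, edgeR adjusted p = 0.00237). H2-K1 had the same order at 4580, 4780 and 4420 CPM, 3080, 3600 and 3280 CPM, and 1990, 1980 and 2190 CPM. Their light chain B2m was at 2490, 2510 and 3110 CPM in Kmt2c KO, 1270, 2580 and 1350 in Kmt2d KO and 1150, 1150 and 1080 in WT mitotic cells, and rose in Kmt2c KO by 1.23 (SE 0.21, edgeR adjusted p = 0.00474). H2-Q6, a non-classical class I gene with close paralogues that can share reads, was at 408, 399 and 323 CPM, 237, 255 and 254 CPM, and 55.7, 68 and 87.8 CPM. The immunoproteasome gene Psmb9 rose by 2.78 in Kmt2c KO (SE 0.35, edgeR adjusted p = 0.00112) and by 1.58 in Kmt2d KO (SE 0.34, edgeR adjusted p = 0.0374).

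Of 25 matrix genes tested, 8 rose and 4 fell in Kmt2c KO mitotic cells (median 0.42). Fn1, with the values above, rose by 0.93 (SE 0.15, edgeR adjusted p = 0.00283), and the stromelysin Mmp3, at 69, 77.8 and 116 CPM against 15.1, 18.6 and 23.3 CPM in WT, by 2.16 (SE 0.19, edgeR adjusted p = 0.000155). The falls were Col3a1 (-3.40), Col5a2 (-2.46), Serpinh1 (-1.86) and Sparc (-0.51). Eln, which encodes elastin, was at 72.8, 68 and 83.3 CPM in Kmt2c KO, 43.9, 42.4 and 65.9 in Kmt2d KO and 11.7, 9.8 and 1.29 in WT mitotic cells (Kmt2c KO 3.23, SE 0.37, edgeR adjusted p = 0.000695). Complement C3 was at 23.2, 34.4 and 56.2 CPM, 11.1, 24.9 and 5.51 CPM, and 0.594, 0.961 and 0.431 CPM, so the WT values rest on few counts.

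Falls in Kmt2c KO mitotic cells were led by Gm364 (-5.76, SE 1.15, edgeR adjusted p = 0.00892), with the values given above. Ptar1, a protein prenyltransferase subunit gene, was at 13.7, 12.6 and 14.9 CPM in Kmt2c KO, 13.4, 14.8 and 13.7 in Kmt2d KO and 42.4, 43.6 and 42.9 in WT mitotic cells, and fell by 1.68 (SE 0.10, edgeR adjusted p = 5.71e-06). The circadian repressor gene Per1 was at 8.49, 7.62 and 7.28 CPM in Kmt2c KO, 33.8, 38.7 and 21.9 in Kmt2d KO and 15.6, 29 and 33 in WT mitotic cells, and fell by 1.75 in Kmt2c KO (SE 0.27, edgeR adjusted p = 0.00283). Tenm4, a teneurin of cell adhesion, fell by 1.54 (SE 0.16, edgeR adjusted p = 0.000335). Lmo1, a LIM-domain transcriptional cofactor, was at 154, 138 and 117 CPM in Kmt2c KO, 113, 134 and 115 in Kmt2d KO and 220, 237 and 224 in WT mitotic cells (Kmt2c KO -0.77, SE 0.11, edgeR adjusted p = 0.00236). Krt8 fell by 0.65 (SE 0.13, edgeR adjusted p = 0.00864), from 603, 582 and 595 CPM in WT to 411, 412 and 340 CPM. Krt8 is one of the 2 markers of the tumour cell gate.

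Kmt2d KO mitotic cells differed from WT at fewer genes, with 142 higher (1.15%) and 154 lower (1.25%). Of 38 type I interferon genes 5 rose (median 1.68), of 24 interferon gamma genes none passed the test (median 2.58), of 21 class I genes 9 rose (median 1.02) and of 25 matrix genes 5 rose (median 0.55). At an unadjusted p under 0.05, 20 of the interferon gamma genes were higher, and DESeq2 called 8 of them. With each tumour left out in turn, the counts ran from 1 to 12 for type I interferon, 4 to 14 for class I and 0 to 8 for matrix genes, the last being 0 without WT 1 and 1 without WT 3. Among the members that passed, H2-Q6 rose by 1.77 (SE 0.15, edgeR adjusted p = 0.000414), Ifi27l2a by 1.15 (SE 0.12, edgeR adjusted p = 0.000978), Fn1 by 0.86 (SE 0.15, edgeR adjusted p = 0.015) and Mmp3 by 1.25 (SE 0.19, edgeR adjusted p = 0.0103). Outside these lists, Ifitm3 rose by 1.06 (SE 0.18, edgeR adjusted p = 0.0172) and Eln by 2.67 (SE 0.37, edgeR adjusted p = 0.00689). Ptar1 fell by 1.67 and Lmo1 by 0.96 (edgeR adjusted p = 1.1e-05 and 0.00242), at values that overlapped those of Kmt2c KO. The antiproliferative gene Btg2 fell by 1.45 (SE 0.29, edgeR adjusted p = 0.0285). Of these genes Ifitm3, like Psmb9 and the genes Bst2, Rtp4 and C3, did not pass the test when any WT tumour was left out, with the direction kept.

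Leaving out Kmt2d KO 2 raised the Kmt2d KO calls from 296 to 715 and lowered the medians of the interferon lists. Type I interferon genes then had 12 of 38 higher at a median of 0.85, interferon gamma genes 1 higher and 1 lower of 24 at 0.74, and class I genes 14 of 21 higher at 0.52. Without that library Bst2 was at 0.89, Rtp4 at 1.63 and Ifitm3 at 0.73 on the log2 scale, against 1.51, 2.64 and 1.06 with it, and all 3 still passed the test. Psmb9 was at 0.88, H2-D1 at 0.72, Ifi27l2a at 1.04, H2-Q6 at 1.76, Mmp3 at 1.32 and Fn1 at 0.99, and passed as well. Eln (2.79), Ptar1 (-1.70) and Lmo1 (-1.03) moved little. Rtp4, an interferon-inducible transport protein, was at 33, 154 and 41.1 CPM in Kmt2d KO mitotic cells, with Kmt2d KO 2 the highest.

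**Figure D4:**
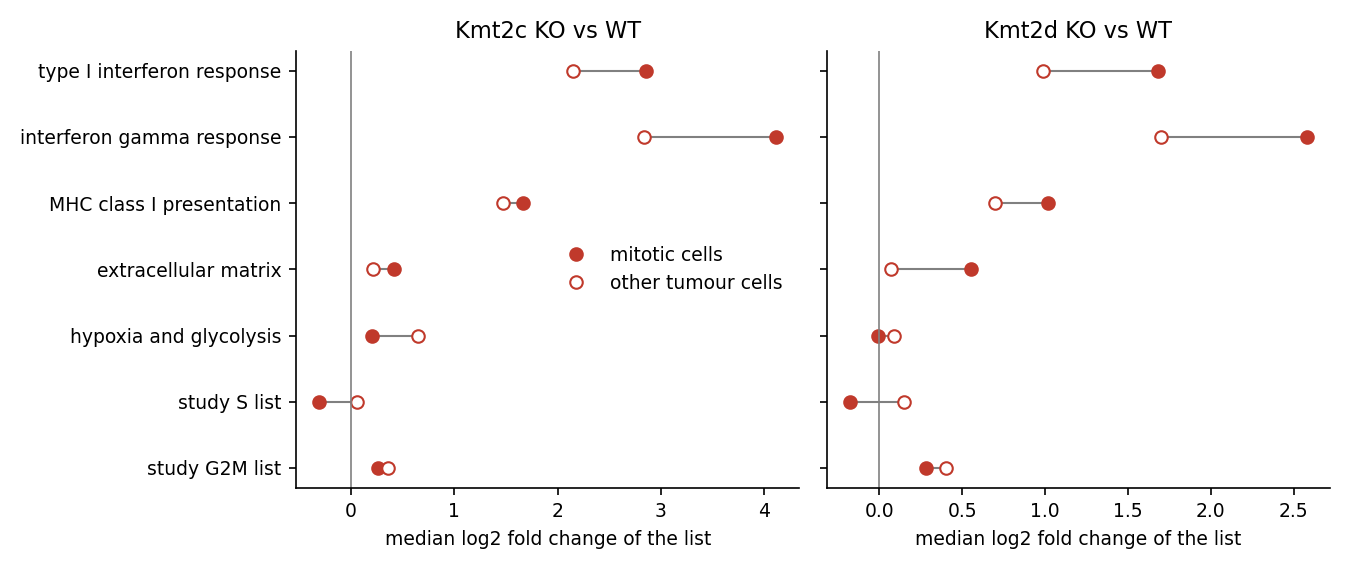
Median log2 difference of 7 gene lists in Kmt2c KO and Kmt2d KO against WT, in mitotic (filled) and other tumour cells (open); the 2 panels have different x ranges. Interferon lists lie furthest right in both panels, at 2.86 and 4.12 in Kmt2c KO and 1.68 and 2.58 in Kmt2d KO mitotic cells, and the S phase list lies below 0 in mitotic cells.

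Few genes passed the direct test between the KO groups. With the test over all 9 tumours 2 genes were higher in Kmt2d KO than in Kmt2c KO mitotic cells (0.0162%) and 1 was lower (0.00809%). Per1 was higher by 1.98 (SE 0.26, edgeR adjusted p = 0.0293), and Tenm4, at 67.1, 49.1 and 67.7 CPM against 31.7, 24 and 25 CPM, by 1.17 (SE 0.15, edgeR adjusted p = 0.0293). Ifi27l2a was lower by 1.04, with log2 difference -1.04 (SE 0.11, edgeR adjusted p = 0.0141). Without Kmt2d KO 2 the count was 1592, and the same 3 genes had 1.80, 1.31 and -1.15, so the count moved with that library. At an unadjusted p under 0.05 there were 1692 genes, and DESeq2 called 194. The interferon lists lay lower in Kmt2d KO than in Kmt2c KO mitotic cells. None of 38 type I interferon genes was above 0 (median -1.27), 36 were lower at an unadjusted p under 0.05, and edgeR called 1 and DESeq2 called 6. Of 24 interferon gamma genes none was above 0 (median -1.42, 15 lower unadjusted, none called by edgeR and 1 by DESeq2), and of 21 class I genes 19 were lower unadjusted (median -0.71, none called by edgeR and 7 by DESeq2).

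Mitotic genes themselves differed less between genotypes than interferon genes. In Kmt2c KO against WT, 9 of 50 G2/M genes rose and none fell (median 0.26). The same direction was seen for 7 of 31 spindle genes (0.29) and 3 of 9 genes of the kinase list (0.41). It was also seen for 3 of 17 APC/C genes (0.05), 3 of 12 cytokinesis genes (0.22) and 2 of 5 passenger complex genes (0.36). Anapc2, among the APC/C rises, kept its call in 11 of 19 alternatives and reversed in 1. Of 15 cyclins and CDK1 regulators (median 0.06) 4 rose and 2 fell, the latter being Arpp19 (-0.44) and Ensa (-0.30). Of 29 centromere and kinetochore genes Hjurp rose (0.45) and Cenph (-0.40) and Pmf1 (-0.31) fell. Over all genes 7.03% rose and 6.65% fell. The centromere and kinetochore counts lie near that background, and the counts of rises in the lists before lie above it. Of 18 condensin and cohesion genes none passed by edgeR or DESeq2, and 1 was higher at an unadjusted p under 0.05. By edgeR 1 of 12 spindle assembly checkpoint genes rose (median 0.14), and none of 13 nuclear envelope genes passed (median 0.03). The G2/M count ran from 2 to 17 with each tumour left out, being 2 without WT 3, 3 without WT 1 or Kmt2c KO 1, 4 without Kmt2c KO 3 and 17 without Kmt2d KO 2. Plk1, with the values given above, differed by 0.59 (SE 0.12, edgeR adjusted p = 0.0103) and Aurka, at 87.1, 86.1 and 92.4 CPM against 62.6, 68.4 and 45.1 CPM in WT, by 0.55 (SE 0.13, edgeR adjusted p = 0.0187). Fam83d was at 69.5, 71.3 and 59.8 CPM in Kmt2c KO, 67.7, 59.6 and 58.3 in Kmt2d KO and 31.1, 45.9 and 22 in WT mitotic cells, with 0.98 (SE 0.20, edgeR adjusted p = 0.00942) in Kmt2c KO and 0.85 (SE 0.20, edgeR adjusted p = 0.0469) in Kmt2d KO. Bub1b was at 80.3, 75.7 and 80.6 CPM, 83.8, 98 and 83.5 CPM, and 64.6, 55.3 and 48.1 CPM, and also passed in both, by 0.46 and 0.61. In Kmt2d KO 1 of 50 G2/M genes rose (median 0.28), 25 were higher and none lower at an unadjusted p under 0.05, and DESeq2 called 6. Without WT 3, Aurka (0.4), Bub1b (0.36 in Kmt2c KO and 0.52 in Kmt2d KO) and Fam83d in Kmt2d KO (0.64) did not pass the test. In other tumour cells the median of the G2/M list was 0.36 in Kmt2c KO and 0.4 in Kmt2d KO against WT. The mitotic members were chosen by UMIs of division genes, and their median depth differed between the genotypes, as given above. The part of that choice and of depth in these differences was not tested.

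The S phase list moved the other way in Kmt2c KO mitotic cells, where 13 of 41 genes fell and none rose (median -0.31), among them Pcna (-0.52, SE 0.11, edgeR adjusted p = 0.0103), the chromatin remodeller Hells (-0.66, SE 0.12, edgeR adjusted p = 0.00522) and the replicative helicase genes Mcm4 and Mcm6. The count ran from 2 without WT 3 to 19 without Kmt2d KO 2, with 5 without Kmt2c KO 2, 6 without WT 1 and 7 without either of the other Kmt2c KO tumours. In Kmt2d KO none of 41 passed by edgeR or DESeq2 (median -0.18), and 7 were lower at an unadjusted p under 0.05. The median depth of mitotic cells also differed between the genotypes, as given above. When members were chosen after each cell was thinned to 5000 UMIs, which left 2505 mitotic cells, 3 of 40 S phase genes fell (median -0.01) and 5 of 50 G2/M genes rose, whereas 36 of 38 type I interferon and 19 of 21 class I genes rose. The summed S phase level was then 1960, 1890 and 1790 CPM in Kmt2c KO against 1990, 1820 and 2100 CPM in WT mitotic cells, which overlap, and it had been 2290, 2280 and 2240 against 2740, 2490 and 2950 CPM, which do not. The part of depth, and of the smaller number of cells, in this change was not tested.

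The same genotype differences were compared between mitotic and other tumour cells of the same tumours in a model with each tumour as its own term. For Kmt2c KO the difference from WT was higher in mitotic than in other cells at 278 of 13636 genes (2.04%) and lower at 90 (0.66%). For Kmt2d KO these were 22 (0.161%) and 1 (0.00733%), in all 23, and 33 without Kmt2d KO 2, where Gas1 had 0.96 and Fn1 0.81.

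Gas1, a growth arrest protein of the Hedgehog pathway, differed in this way in both KO groups. In other tumour cells it was at 204, 287 and 288 CPM in Kmt2c KO, 360, 245 and 367 in Kmt2d KO and 549, 543 and 410 in WT tumours, so both KO groups lay below WT. In mitotic cells it was at 87.9, 92.6 and 104 CPM, 125, 100 and 124 CPM, and 89.7, 106 and 66.6 CPM, and both KO groups overlapped WT. The KO difference was 1.07 higher in mitotic cells for Kmt2c KO (SE 0.11, edgeR adjusted p = 0.000425) and 1.05 for Kmt2d KO (SE 0.11, edgeR adjusted p = 0.00146). The stress-induced growth arrest gene Gadd45a had the same shape in Kmt2c KO, with 78.6, 87 and 75.6 CPM against 172, 183 and 132 CPM in other cells and 27.8, 29.2 and 33.5 against 23.6, 33.1 and 18.1 CPM in mitotic cells. Its interaction was 1.26 (SE 0.13, edgeR adjusted p = 0.000425).

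The glucose transporter gene Slc2a1 went the opposite way. It was at 118, 205 and 163 CPM in other cells of Kmt2c KO tumours against 47.3, 59.8 and 88.8 CPM in WT, but at 73.4, 83.9 and 83 CPM against 53.7, 73.2 and 105 CPM in mitotic cells, where the groups overlapped. The Kmt2c KO difference was 1.33 in other and 0.02 in mitotic cells (interaction -1.24, SE 0.13, edgeR adjusted p = 0.000425). Of 28 hypoxia and glycolysis genes 10 had a lower Kmt2c KO difference in mitotic cells and none a higher one (median -0.36), and the count was 1 without WT 1, 3 without Kmt2c KO 2 and 5 without WT 3. The cytokine gene Mif was among the genes outside that list with the same direction, at 0.21 in mitotic and 0.80 in other cells (interaction -0.54, SE 0.09, edgeR adjusted p = 0.00556).

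Ifitm3 differed from WT more in mitotic cells, by 2.26 in Kmt2c KO (interaction 0.79, SE 0.08, edgeR adjusted p = 0.000425). Other cells held 3880, 4500 and 4330 CPM in Kmt2c KO and 1450, 1530 and 1570 CPM in WT tumours, so the ratio of other to mitotic cells was higher in WT than in Kmt2c KO tumours. Of 39 type I interferon genes 15 had a higher Kmt2c KO difference in mitotic cells and 1 a lower one (median 0.81), as did 8 of 26 interferon gamma genes (median 1.23) and 6 of 21 class I genes (median 0.23). With the H2BMc gate these counts were 3 of 38, 0 of 25 (1 lower) and 1 of 21, and with members chosen after thinning 12 of 38 (1 lower), 2 of 25 (1 lower) and 0 of 21, where 11 class I genes were higher at an unadjusted p under 0.05. Zbp1, a sensor of Z-form nucleic acid, was at 12.4, 15.2 and 23.8 CPM in other and 2.97, 3.84 and 0.647 CPM in mitotic cells of WT tumours, with an interaction of 2.21 (SE 0.35, edgeR adjusted p = 0.00453). Igtp, an immunity-related GTPase, was at 17, 14.5 and 38.5 CPM in WT other cells and 7.13, 5.38 and 4.10 CPM in WT mitotic cells. WT 3 thus held the highest level in other cells and the lowest in mitotic cells at both genes. Without WT 3 the type I count was 4 higher and 1 lower, the interferon gamma count 0 higher and 1 lower and the class I count 0 by edgeR, where 11 interferon gamma and 9 class I genes were higher at an unadjusted p under 0.05. Fn1 had a higher difference in mitotic cells in both groups (0.61, SE 0.09, edgeR adjusted p = 0.00412 in Kmt2c KO and 0.72, SE 0.09, edgeR adjusted p = 0.00658 in Kmt2d KO). Fibroblast markers had the same direction, with 8 of 8 above 0 in Kmt2c KO (median 0.36) and 7 of 8 in Kmt2d KO (median 0.46). Among them Pi16 passed the test in both (1.17 and 1.12). The part of fibroblast RNA in the Fn1 difference was not tested.

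Pcna was lower in Kmt2c KO than in WT mitotic cells, at 77.1, 77.2 and 79.6 against 109, 101 and 117 CPM, but higher in other cells, at 99.1, 78.7 and 87.6 against 68, 72.8 and 76.1 CPM (interaction -0.79, SE 0.11, edgeR adjusted p = 0.00242). In all, 7 of 41 S phase genes had a lower Kmt2c KO difference in mitotic cells, and 1 did without WT 1 or WT 3. With members chosen after thinning none did by edgeR, and 4 were lower at an unadjusted p under 0.05. Of 50 G2/M genes none had a different Kmt2c KO difference between the cell classes by edgeR and 1 did by DESeq2, with 4 higher and 1 lower at an unadjusted p under 0.05.

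**Figure D5:**
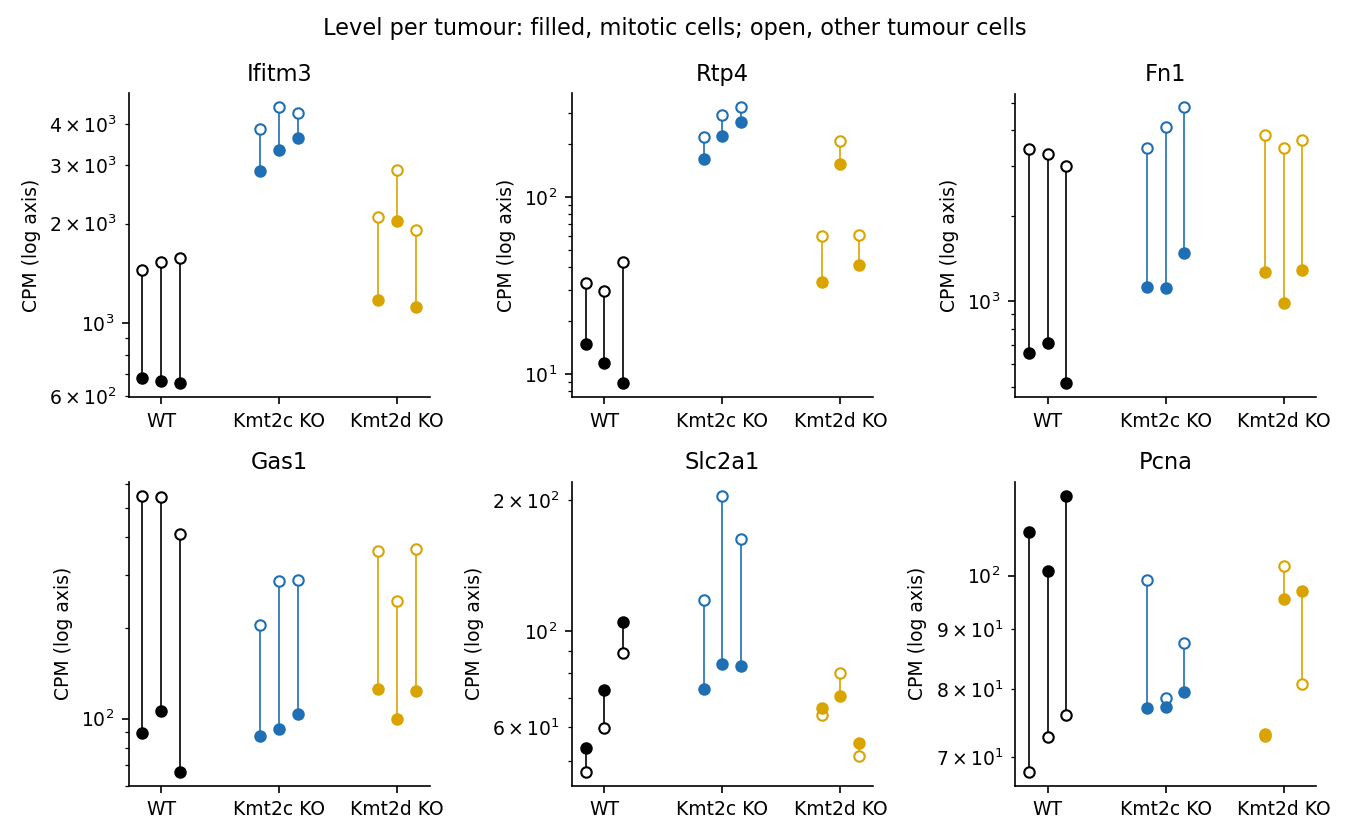
Level in CPM (log axis) of Ifitm3, Rtp4, Fn1, Gas1, Slc2a1 and Pcna in each tumour, in mitotic (filled) and other tumour cells (open). Gas1 and Slc2a1 differ between Kmt2c KO and WT in other cells and overlap in mitotic cells, and Ifitm3 lies apart between those genotypes in both.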

How the data were processed

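The deposited matrix held UMI counts per gene and barcode, which the authors made with Cell Ranger 7.0.1 (mm10, per the submitters' processing notes) and aggregated over the 9 libraries; libraries were mapped to genotypes by their letters in the aggregation table, and 0 columns of values were left unmapped. The members and gene lists were chosen with earlier results of these data known. Barcodes were filtered as the study did, the gate and the 6-gene rule were applied, and counts were summed per tumour and cell class. Sums were tested with edgeR 4.0.16 (TMM scaling, filterByExpr, quasi-likelihood test, Benjamini-Hochberg threshold 0.05), with genotype as the factor, and in a second fit with tumour, cell class and their interaction with genotype. SEs were derived from the F statistic. Ratios used CPM + 1 in R 4.3.3 and Python 3.11.15 (pandas 2.3.3, scipy 1.17.1). Cells were thinned to 3000 UMIs with seed 1. Scripts were tested on simulated data. P-values measure the spread between tumours of 1 line per genotype. Named genes were the 6 rule genes and genes of interest to the study, up to 4 members per role list by size of the ratio, the 10 most extreme unlisted genes, the 8 largest called changes per contrast, the 6 strongest interactions per direction and the 4 most abundant members of the interferon, class I, matrix and hypoxia lists; other list members named were chosen after their values were seen. Alternatives were DESeq2 1.42.0, RLE scaling, no low-count filter, a stricter rule of 4 genes, an H2BMc gate, leaving out the deepest 5% of cells, thinning, fits of only 2 groups, drawing other cells to the mitotic number, and leaving out each tumour; members chosen after thinning to 5000 UMIs and no upper limit on genes were chosen after seeing the data. Promoters were matched by symbol to RefSeq (GRCm38.p6). Doublets were not called, and the cause of the standing of Kmt2d KO 2 was not tested. Not every gene that the naming rule allows is named.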

Additional observations from a re-analysis of the deposited data

Results flagged for a closer look

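The genotype difference was not the same in mitotic and other tumour cells at 368 genes for Kmt2c KO and 23 genes for Kmt2d KO, each by the interaction test of edgeR. In Kmt2c KO the difference from WT was higher in mitotic cells for Gadd45a (1.26), Gas1 (1.07), Add3 (1.05), Sertad4 (1.02), Ifitm3 (0.79) and Gpsm2 (0.60), on the log2 scale. Add3, a membrane skeleton gene, differed from WT by 0.29 in mitotic and -0.70 in other cells, Sertad4 by 0.25 and -0.74, and Gpsm2, which orients the spindle, by -0.12 and -0.69. It was lower in mitotic cells for Slc2a1 (-1.24), Pcna (-0.79), the folate enzyme gene Mthfd2 (-0.65), the hypoxia-inducible gene Higd1a (-0.64), the replication licensing gene Cdt1 (-0.60) and Mif (-0.54). In Kmt2d KO it was higher in mitotic cells for Gas1 (1.05), the homeobox gene Irx5 (0.99), Sertad4 (0.74), Fn1 (0.72), Gm13889 (0.69) and the lysophosphatidic acid receptor gene Lpar1 (0.53), and lower for Clec14a (-1.13). Irx5 differed from WT by 0.22 in mitotic and -0.76 in other cells. Gas1 in both groups, and Ifitm3, Slc2a1 and Mif in Kmt2c KO, kept their direction and passed the test under all 19 alternatives run, whereas Clec14a passed under 3 of 18. The cause of these differences was not tested.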

How the results depend on the processing

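For the mitotic share, the exact permutation p over the 3 genotypes ran from 0.5107 to 1.0 (the latter without WT 2), and that of pairs of genotypes from 0.3 to 1.0. The count of genes that differed in mitotic cells moved by more than 1.5 times as follows. Kmt2c KO against WT (1691) had 447 in thinned cells, 1054 with members chosen after thinning, and 754 to 2686 with a tumour left out. Kmt2d KO against WT (296) had 603 by DESeq2, 950 with no low-count filter, 43 thinned, 150 with members chosen after thinning, 111 with only the 2 groups, and 38 to 715 with a tumour left out. Kmt2d KO against Kmt2c KO (3) had 194 by DESeq2, 770 with no filter, 7 with 4 of the 6 genes, 8 with the H2BMc gate, 66 thinned, 24 with members chosen after thinning, 0 with only the 2 groups, and 0 to 1592 with a tumour left out. The Kmt2c KO interaction (368) had 701 with no filter, 63 with the H2BMc gate, 73 thinned, 117 with members chosen after thinning, 205 with other cells drawn to the mitotic number, and 88 to 480 with a tumour left out, and its share of higher calls was 75.5% by edgeR and 62.7% by DESeq2. The Kmt2d KO interaction (23) had 53 by DESeq2, 12 with RLE scaling, 249 with no filter, 3 with 4 of the 6 genes, 1 with the H2BMc gate, 39 without the deepest 5% of cells, 12 thinned, 6 with members chosen after thinning, 12 with other cells drawn, and 2 to 33 with a tumour left out. The causes were not tested. The counts of 0 are by edgeR, with 1692 genes at an unadjusted p under 0.05 over all 9 tumours.

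Of 3037 values of single genes under the alternatives, 2397 kept their direction and call, 639 kept the direction and lost the call, and 1 reversed: Anapc2 in Kmt2c KO against WT had -0.0 in thinned cells against 0.35. Calls of named genes were lost most often without WT 3 (77), without WT 1, thinned, or with members chosen after thinning (66 each). Each WT tumour held 131 to 227 mitotic cells, and few interaction calls do not show that the classes respond alike. No paired analysis was possible because the library numbers do not pair tumours across genotypes.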

Other observations

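Immediate early genes were mostly lower in mitotic cells. Of 20 such genes 12 were lower and 1 higher in all 9 tumours, beside 40.4% and 21.6% of all genes (median log2 ratio -0.69), with Fos at -2.13, the phosphatase gene Dusp1 at -2.06 and Jund at -1.31. Fosl1, a late-acting member of the FOS family, was the exception at 1.55 (1.03 to 1.78). In Kmt2c KO mitotic cells 5 of the 20 rose against WT, beside 7.03% of all genes, namely Myc (0.59), Junb (0.71), Klf4 (0.59), Fosl1 (0.41) and Dusp2 (1.84).

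Of 16 genes of the COMPASS and KDM6 list, chromatin regulators related to the targeted genes, 5 were higher and 7 lower in all 9 tumours, beside 21.6% and 40.4% of all genes, so the counts lie near the background. Ezh2, the catalytic subunit of PRC2, was at 0.81 (0.59 to 1.28) and its paralogue Ezh1 at -1.40 (-1.74 to -0.96). The H3K27 demethylase gene Kdm6b was at -1.11. The COMPASS core subunits Dpy30, Wdr5, Ash2l and Rbbp5 were at 0.59, 0.42, 0.20 and -0.14. Among chaperones, Hsp90aa1 (0.73) and Hsp90b1 (0.69) were higher and Hspa1b (-1.18) lower in all 9 tumours, and Hspa1b fell by 1.30 in Kmt2d KO mitotic cells (SE 0.26, edgeR adjusted p = 0.0283).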
